A study of Homo sapiens with 6 samples.

Results

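The genes followed here are 10 regulators and markers of epithelial-mesenchymal transition (EMT) and the mesenchymal state: the transcription factors SNAI1, SNAI2, ZEB1, ZEB2 and PRRX1, the surface proteins CDH2, CDH11 and CD44, the intermediate filament VIM and the matrix protein FN1. Chromatin accessibility was measured by ATAC-seq, in which the Tn5 transposase cuts DNA that is not wrapped or covered, in RH30 cells, an established line of fusion-positive (alveolar) rhabdomyosarcoma. All cells were transduced with Cas9, and 3 libraries carried an sgRNA scramble guide while 3 carried sgRNA targeting MyoD, the myogenic transcription factor, called MyoD-deleted here. The labels name all 6 as biological replicates and give no clone, date or batch. The study's text names the profiled cells both as RH30 and as RH30-SR, the line with an IκBα super repressor that blocks NF-κB, whereas the labels give RH30 for both groups.

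Peaks of the 6 libraries that overlapped or touched were joined into 105569 regions. A region was assigned to a gene when its highest summit lay in the gene body or within 100 kb of it (GENCODE, hg38). This gave 166 regions, of which 55 lay in a gene body and 72 were called in all 6 libraries, so 94 were left out of every test on heights and ranks. For 128 of the 166, no other protein-coding gene had a closer 5′ end than the member, and no region was assigned to 2 members.

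EMT is a program in which cells lose epithelial junctions and gain a migratory, mesenchymal form. SNAI1, SNAI2, ZEB1 and ZEB2 are zinc-finger repressors that bind E boxes of the CAGGTG type in epithelial promoters such as that of CDH1, while CDH2, VIM and FN1 are mesenchymal products used to score the state. MyoD is a basic helix-loop-helix factor that prefers the E box CAGCTG in muscle enhancers. Rhabdomyosarcoma cells are themselves of mesenchymal and muscle lineage, and such cells make CDH2, CDH11, VIM and FN1 without any transition.

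The sequences below are reference sequence (GRCh38, plus strand, not read from RH30) of 201 bases centred on the top summit. They are shown because these regions carry the differences described further on. Capitals mark motifs matched on either strand. One E box searched was CAGCTG and the other was CAGGTG, the type described above for SNAI and ZEB factors. A match to either E box does not tell which factor binds there. The AP-1 site was TGAGTCA, which reads TGACTCA on the other strand, and the TEAD site was GGAATG. None of these patterns contains another.
CD44 5′ region, lower in MyoD-deleted, chr11:35139735-35139935: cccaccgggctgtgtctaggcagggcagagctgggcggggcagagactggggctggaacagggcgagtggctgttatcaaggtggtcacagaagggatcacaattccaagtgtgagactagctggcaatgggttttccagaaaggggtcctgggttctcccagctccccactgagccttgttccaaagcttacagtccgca
CD44 intron 1, lower in MyoD-deleted, chr11:35151781-35151981: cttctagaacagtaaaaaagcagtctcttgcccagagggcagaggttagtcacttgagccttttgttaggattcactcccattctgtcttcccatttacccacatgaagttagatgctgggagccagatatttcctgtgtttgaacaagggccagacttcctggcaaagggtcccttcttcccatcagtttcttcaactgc
ZEB2 intron 2, lower in MyoD-deleted, chr2:144431374-144431574: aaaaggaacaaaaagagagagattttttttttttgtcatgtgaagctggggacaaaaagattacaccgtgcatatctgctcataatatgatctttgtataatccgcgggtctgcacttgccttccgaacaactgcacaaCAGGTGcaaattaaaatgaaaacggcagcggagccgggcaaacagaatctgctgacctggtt
ZEB2 intron 3, ranking higher in MyoD-deleted, chr2:144427257-144427457: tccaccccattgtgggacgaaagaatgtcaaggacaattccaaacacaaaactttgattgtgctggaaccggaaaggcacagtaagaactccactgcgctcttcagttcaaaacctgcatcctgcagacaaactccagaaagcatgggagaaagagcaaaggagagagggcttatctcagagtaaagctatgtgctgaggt
SNAI1 window, gained in MyoD-deleted, chr20:49948913-49949113: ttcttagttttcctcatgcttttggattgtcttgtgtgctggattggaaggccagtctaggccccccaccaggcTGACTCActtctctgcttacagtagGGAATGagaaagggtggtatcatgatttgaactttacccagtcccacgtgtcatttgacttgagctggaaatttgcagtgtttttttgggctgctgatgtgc
FN1 upstream, gained in MyoD-deleted, chr2:215460743-215460943: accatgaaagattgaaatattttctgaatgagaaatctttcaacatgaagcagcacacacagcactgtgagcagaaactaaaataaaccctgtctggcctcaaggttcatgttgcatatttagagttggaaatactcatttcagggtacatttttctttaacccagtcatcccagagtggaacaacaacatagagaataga
CD44 window, gained in MyoD-deleted, chr11:35282707-35282907: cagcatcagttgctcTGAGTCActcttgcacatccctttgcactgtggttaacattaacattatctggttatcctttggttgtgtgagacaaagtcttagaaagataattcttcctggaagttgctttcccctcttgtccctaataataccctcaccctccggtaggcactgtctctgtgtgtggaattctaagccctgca
ZEB2 upstream, lost in MyoD-deleted, chr2:144542816-144543016: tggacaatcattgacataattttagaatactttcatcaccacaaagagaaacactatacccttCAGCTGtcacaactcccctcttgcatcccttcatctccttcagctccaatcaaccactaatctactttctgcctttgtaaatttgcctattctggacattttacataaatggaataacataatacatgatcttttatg
CDH11 upstream, lost in MyoD-deleted, chr16:65136718-65136918: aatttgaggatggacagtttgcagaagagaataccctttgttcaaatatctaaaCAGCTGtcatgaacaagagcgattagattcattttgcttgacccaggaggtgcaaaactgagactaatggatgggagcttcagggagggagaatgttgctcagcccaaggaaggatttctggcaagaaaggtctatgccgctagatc
VIM upstream, lost in MyoD-deleted, chr10:17219066-17219266: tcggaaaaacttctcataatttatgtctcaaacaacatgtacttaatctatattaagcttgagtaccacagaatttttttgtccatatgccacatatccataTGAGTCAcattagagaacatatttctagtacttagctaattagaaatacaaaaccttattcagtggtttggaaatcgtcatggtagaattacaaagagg

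These windows differ in what they hold. The CD44 5′ region, the CD44 intron 1 region, the ZEB2 intron 3 region and the FN1 upstream region hold none of the 4 motifs. Both lost regions near ZEB2 and CDH11 hold CAGCTG, 34 and 44 bases from the summit, and the ZEB2 intron 2 region holds CAGGTG 42 bases from it. The gained window near SNAI1 holds an AP-1 site 23 bases and a TEAD site 2 bases from its summit, the lost VIM window an AP-1 site 5 bases away, and the gained CD44 window an AP-1 site 82 bases away.

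The libraries had between 63140 and 74121 peaks in the scramble group and between 73745 and 80608 in the MyoD-deleted group. The files hold no read counts, so depth was read from the smallest background that the peak caller used in each library, which was 2.22 to 3.41 fragments in scramble and 2.27 to 2.35 in MyoD-deleted. All 8 markers of muscle and fusion-positive rhabdomyosarcoma (MYOD1, MYOG, MYF5, DES, FGFR4, PAX3, CHRNA1 and CDH15) had an open region within 2 kb of their 5′ end in all 6 libraries. The MYOD1 region says nothing of the edit itself, since small insertions and deletions leave a peak. Of 6 epithelial markers, CDH1, ESRP1, GRHL2, KRT19 and CLDN4 had no such region in any library, and EPCAM had one in 2 of 3 scramble and 3 of 3 MyoD-deleted libraries. CDH5 and TIE1, 2 of the 3 endothelial markers, had a region in 0 of 3 scramble and 3 of 3 MyoD-deleted libraries, and PECAM1 in none. The haematopoietic markers PTPRC and CD3E had none in any library. The part of these marker regions in the results was not tested.

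The member regions were called 123, 100 and 93 times in the 3 scramble libraries, against 117, 127 and 127 times after MyoD deletion. These are 74.1%, 60.2% and 56.0% against 70.5%, 76.5% and 76.5% of the 166, while all regions were called at 69.9%, 59.1% and 61.0% against 69.1%, 75.0% and 75.2%. Both measures of openness were tested with limma over the 47885 regions called in all 6 libraries. The first was the rank of a region's fold enrichment (summit over local background) within its library, given as a percentile from 0 to 100 and tested on an SD scale. By rank, 1 of the 72 member regions was higher in MyoD-deleted libraries (1.39%, against 4.12% of all regions tested) and 4 were lower (5.56%, against 4.67%), at an adjusted p under 0.05. At an unadjusted p under 0.05 there were 23 of the 72 and 12069 of the 47885. The median change in rank was -0.002 SD units for the members and -0.004 for all regions.

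The second measure was the summit height, as log2 of the fragments at the summit over the smallest background of the library, centred on the median region. Here 12 of the 72 were higher (16.7%, against 11.4% of all regions) and 12 lower (16.7%, against 12.8%). The median change in height was 0.026 in the members and 0.035 over all regions, on the log2 scale. Centring removed a shift of 0.192 toward MyoD-deleted libraries, and without it the members split into 25 higher (34.7%, against 24.7% of all regions) and 7 lower (9.72%, against 8.03%), so the directions below are relative to the median region. All 12 higher and 7 of the 12 lower regions were also called in that direction without centring. Leaving out any 1 of the 6 libraries kept 14 of the 24 calls, 7 in each direction. The share of all called regions kept in this way is not given here. Regions described below for their height alone were outside the naming rule and were chosen after their values were seen. Fragment numbers at a summit are not scaled for depth, and scramble replicate 1 was the deepest library by this measure.

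**Figure D1:**
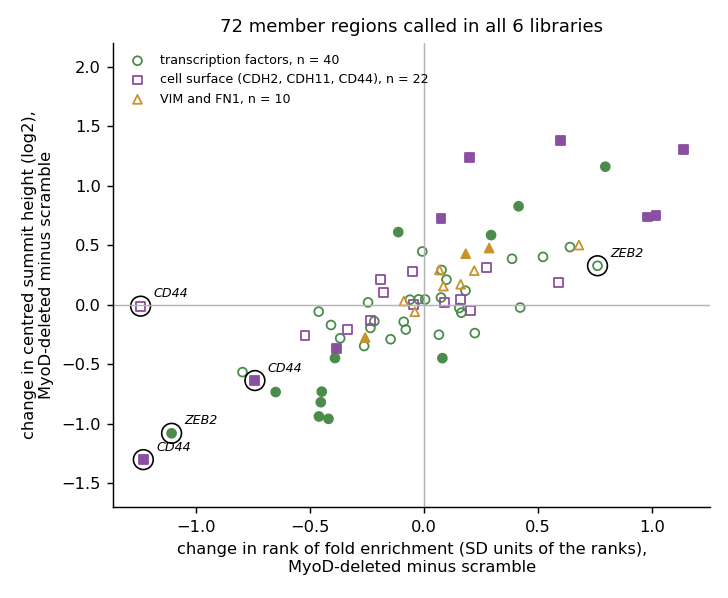
Each point is 1 of the 72 member regions called in all 6 libraries, with its change in rank of fold enrichment (x axis, SD units of the ranks) and its change in centred summit height (y axis, log2), both MyoD-deleted minus scramble. Filled points passed the test on height (12 above and 12 below 0) and circled, named points passed the test on rank (1 ZEB2 region to the right, 3 CD44 regions and 1 ZEB2 region to the left). One circled CD44 region lies near 0 in height.

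Regions called in one group only were counted without a test. A gained region was called in 3 of 3 MyoD-deleted and 0 of 3 scramble libraries, and a lost region the reverse. Of the 166 member regions, 9 were gained (5.42%, against 4.56% of all regions) and 3 were lost (1.81%, against 1.78%). Gained regions lay in the windows of CD44 (3), CDH2 (2), SNAI1, ZEB2, CDH11 and FN1, and lost regions in those of ZEB2, CDH11 and VIM. Leaving out a library loosens this rule and can only keep or raise the counts. The gained count was 22 without scramble replicate 1 and 16 without MyoD-deleted replicate 1, so single libraries kept further regions out of it. The balance also depends on the number of peaks per library. With equal numbers of peaks in each library, 3 member regions were gained and 8 were lost. A region that is not called may still be open below the caller's threshold.

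At the 5′ ends, 7 of the 10 genes had a region within 2 kb that was called in all 6 libraries, and CD44 was the one of these 7 that changed by rank. The FN1 promoter ranked highest. Its rank was 63.4, 75.4 and 78.4 in scramble against 81.9, 80.1 and 76.3 in MyoD-deleted libraries, and the groups overlapped. FN1 encodes fibronectin, a matrix glycoprotein, and its promoter height differed by 0.29 ± 0.15 (SE, n = 3 per group, adjusted p = 0.193). Without centring the same height was higher in MyoD-deleted libraries (adjusted p = 0.0231).

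The VIM 5′ region, over the gene of the filament protein vimentin and also inside VIM-AS1, which ATAC-seq cannot tell apart by strand, had the largest summits of the 7. Its summits held 716, 473 and 625 fragments in scramble and 457, 503 and 452 in MyoD-deleted libraries. Its centred height fell by 0.27 ± 0.09 (adjusted p = 0.0367), with no overlap between the groups. That call was lost without centring (adjusted p = 0.624), without scramble replicate 2 (0.0737) or 3 (0.12) and without MyoD-deleted replicate 2 (0.0758) or 3 (0.228). By rank it was 52.3, 48.6 and 54.6 against 44.9, 45.5 and 34.6, with an adjusted p of 0.353.

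The SNAI1 promoter, whose summit lay 105 bp upstream of the gene, ranked 23.4, 26.1 and 37.2 in scramble and 42.8, 44.6 and 45.5 in MyoD-deleted libraries. The groups did not overlap, but the change of 0.42 ± 0.17 SD units did not pass the test (adjusted p = 0.164), and the height change was -0.02 ± 0.17 (adjusted p = 0.944). SNAI2 ranked 24.7, 35.4 and 34.9 against 40.1, 35.7 and 36.7, where the groups were narrowly apart (adjusted p = 0.605). ZEB1 ranked 20.1, 35.4 and 31.1 against 33.7, 27.3 and 19.2, with overlap (adjusted p = 0.88). CDH2, the gene of N-cadherin, ranked 23.7, 36.8 and 34.1 against 24.4, 25.9 and 20.1, also with overlap (adjusted p = 0.461).

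The other three genes had no such region. Near the ZEB2 5′ end a region was called in scramble replicate 2 alone, at a fold enrichment of 2.25, while regions 3.6 kb inside and 3.4 kb upstream of the gene were called in all 6 libraries. PRRX1, a homeobox factor of limb and craniofacial mesenchyme, had none within 2 kb. CDH11, the gene of a cadherin of mesenchymal and bone-forming cells, had an open region 3.8 kb inside its longest gene model and 208 bp from the 5′ end of its canonical transcript. That region ranked 47.3, 56.2 and 55.2 in scramble and 41.6, 39.2 and 38.0 in MyoD-deleted libraries. The groups did not overlap, and the change did not pass the test (adjusted p = 0.21).

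**Figure D2:**
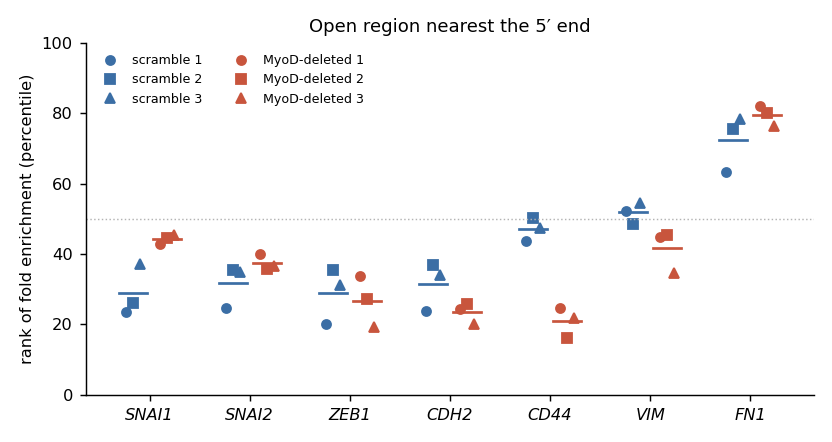
Rank of fold enrichment (y axis, percentile within a library among regions called in all 6 libraries) of the open region nearest the 5′ end of 7 genes (x axis), with 1 point per library and a bar at the mean of each group. CD44 fell from 43.7 to 50.1 in scramble to 16.2 to 24.7 in MyoD-deleted libraries, and FN1 sits highest at 63.4 to 81.9.

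CD44, a receptor for the matrix polysaccharide hyaluronan, had the most open regions of the 10 genes, 27, of which 11 were called in all 6 libraries. Its window held 3 of the 4 member regions that ranked lower, and also 3 regions with higher and 3 with lower summits. The 5′ region (chr11:35138661-35140233) has its summit in intron 1, 953 bp into the gene. Its rank was 43.7, 50.1 and 47.5 in scramble and 24.7, 16.2 and 21.7 in MyoD-deleted libraries. Every MyoD-deleted library was below every scramble library, and the change was -0.74 ± 0.17 SD units (adjusted p = 0.0272). Its summits held 211, 136 and 179 fragments against 102, 108 and 108, and the centred height fell by 0.64 ± 0.12 on the log2 scale, or to 0.643 of scramble (adjusted p = 0.000602). The height call remained when any 1 library was left out (adjusted p at most 0.00465). The rank call was lost without scramble replicate 2 (0.0896) or 3 (0.0792), or without MyoD-deleted replicate 1 (0.0563), 2 (0.098) or 3 (0.0588). Across the 6 leave-outs the rank change lay between -0.78 and -0.64 SD units.

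A smaller region in the same intron (chr11:35151373-35152430), 13.0 kb into the gene, showed the larger difference. It ranked 41.9, 38.9 and 34.5 in scramble and 12.5, 3.3 and 5.6 in MyoD-deleted libraries. Its fold enrichment was 7.95, 7.61 and 7.15 against 5.2, 3.91 and 4.5, so the groups stayed apart on every scale. The rank changed by -1.23 ± 0.22 SD units (adjusted p = 0.0105) and the height fell by 1.30 ± 0.23 to 0.406 of scramble (adjusted p = 0.000409). Both calls remained when any 1 library was left out. The summits held 53, 32 and 35 fragments against 16, 12 and 18, so the MyoD-deleted values rest on few fragments.

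Upstream of CD44, a pair of regions 56.4 kb (chr11:35082138-35082941) and 55.0 kb (chr11:35083538-35084240) from the gene had higher summits in MyoD-deleted libraries. Their summits held 112, 73 and 75 fragments in scramble against 164, 219 and 194 in MyoD-deleted libraries, and 82, 32 and 38 against 96, 127 and 125. The centred heights rose by 1.24 ± 0.13 (2.36-fold, adjusted p = 2.94e-06) and 1.38 ± 0.19 (2.6-fold, adjusted p = 6.13e-05), and no library of one group reached the other. Both calls remained when any 1 library was left out.

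The local background beside these summits differed too, by 2.34-fold and 2.06-fold, and by rank neither region passed the test. A neighbour 50.9 kb upstream (chr11:35087603-35088464) was the third CD44 region that ranked lower by the change in percentile points, and was named after its values were seen. Its fold enrichment was 5.91, 5.93 and 5.47 in scramble and 3.27, 3.53 and 3.64 in MyoD-deleted libraries, and its rank changed by -1.24 SD units (adjusted p = 0.0056). Its height differed by -0.01 ± 0.20 (adjusted p = 0.978), while its local background was 1.95 times that in scramble. The part of the local background in these results was not tested.

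Within the gene, a region in intron 15 (chr11:35214433-35215463) had 66, 16 and 19 fragments in scramble and 54, 80 and 61 in MyoD-deleted libraries. Its centred height rose by 1.31 ± 0.30 (adjusted p = 0.00401), with scramble replicate 1 close to the MyoD-deleted group. A region 35.2 kb upstream had a lower summit (-0.36 ± 0.12, adjusted p = 0.0402). That call was lost without scramble replicate 1 (0.147) or 2 (0.0556) or MyoD-deleted replicate 1 (0.195) or 2 (0.0735), and without centring (0.354). The 3 gained regions lay 74.6 kb upstream of CD44 and, beyond its 3′ end, in 2 places in SLC1A2, a glutamate transporter gene. The named one of these, in SLC1A2, had a fold enrichment of 6.73, 4.89 and 5.08 in the MyoD-deleted libraries.

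**Figure D3:**
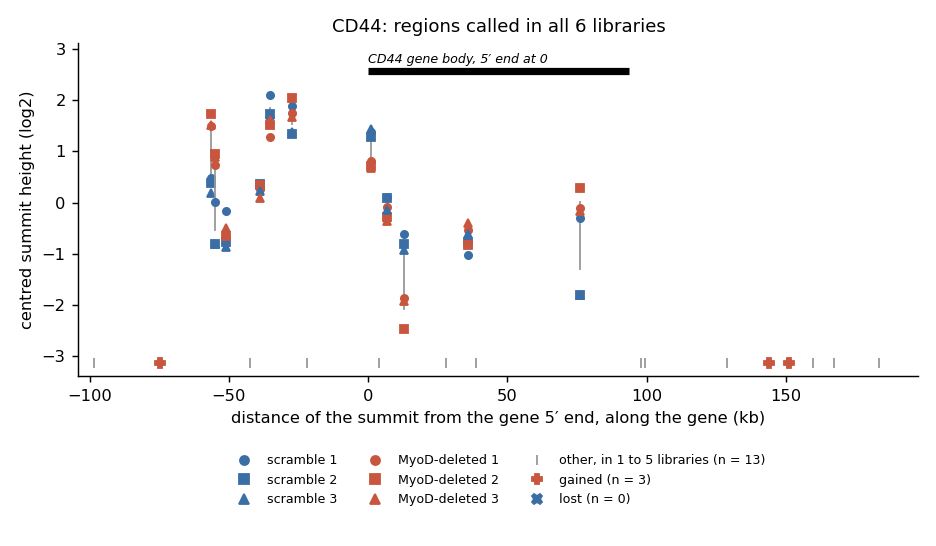
Centred summit height (y axis, log2) of the 11 CD44 regions called in all 6 libraries, by distance of the summit from the gene 5′ end (x axis, kb), with 1 point per library and a grey line between group means. The pair 56.4 and 55.0 kb upstream is higher in MyoD-deleted libraries, the regions 1.0 and 13.0 kb into the gene are lower, and the marks at the bottom give regions called in fewer libraries, 3 of them gained.

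ZEB2, a repressor that also acts in neural crest, had 23 regions, 13 of them in all 6 libraries. By height 4 of these were lower and 0 higher, without centring 4 were lower and 4 higher, and by rank 1 was higher and 1 lower. The lower one (chr2:144430775-144432228, intron 2, 89.6 kb from the gene 5′ end) had a fold enrichment of 5.3, 4.84 and 4.84 in scramble and 3.54, 2.42 and 3.93 in MyoD-deleted libraries. The groups did not overlap. Its rank changed by -1.11 SD units (adjusted p = 0.0344) and its height fell by 1.08 ± 0.25 to 0.473 of scramble (adjusted p = 0.0034). The height call remained with any 1 library left out (adjusted p at most 0.0218). The rank call was lost without scramble replicate 1 (0.0658), 2 (0.0822) or 3 (0.0834) or MyoD-deleted replicate 1 (0.0608) or 2 (0.0945). Across the 6 leave-outs the rank change lay between -1.29 and -0.74 SD units.

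The region that ranked higher (chr2:144426846-144427609, intron 3) lay 93.7 kb from the 5′ end. Its fold enrichment was 5.56, 7.04 and 6.32 in scramble and 9.97, 10.6 and 9.4 in MyoD-deleted libraries, with no overlap. Its rank rose by 0.76 SD units (adjusted p = 0.0366), while its height change of 0.33 ± 0.17 did not pass the test (adjusted p = 0.169), although it did without centring (0.52, adjusted p = 0.0324). The local background was 0.86 times that in scramble. The rank call was lost without any 1 scramble replicate (0.0729, 0.061 and 0.0926 for replicates 1 to 3) and without MyoD-deleted replicate 1 (0.112) or 2 (0.109). Across the 6 leave-outs the rank change lay between 0.62 and 0.85 SD units.

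The other 3 lower summits at ZEB2 lay toward its 3′ end, where GTDC1 has the nearest 5′ end. The regions in intron 6 (chr2:144402030-144402660) and intron 5 (chr2:144403929-144405519) fell by 0.96 ± 0.17 (adjusted p = 0.000393) and 0.94 ± 0.16 (adjusted p = 0.000364). Their summits held 98, 73 and 81 against 39, 36 and 49 fragments, and 180, 92 and 105 against 58, 53 and 70. The groups were apart in both, and both calls remained with any 1 library left out. The local background was 0.646 and 0.652 times that in scramble, and neither passed the test by rank. The third (chr2:144379549-144380796) fell by 0.73 ± 0.17 (adjusted p = 0.00489), a call lost without scramble replicate 2 (0.0512).

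A gained region in intron 2 of ZEB2 had a fold enrichment of 6.89, 4.89 and 7.31 in the MyoD-deleted libraries. The lost region, 21.9 kb upstream in LINC01412, had 5.67, 3.72 and 4.82 in the scramble libraries and 24, 11 and 17 fragments at its summit.

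**Figure D4:**
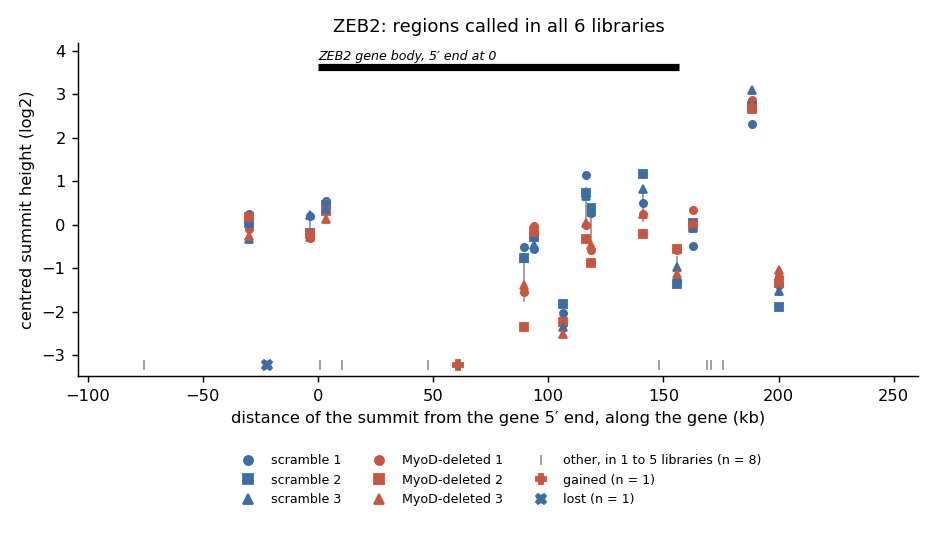
Centred summit height (y axis, log2) of the 13 ZEB2 regions called in all 6 libraries, by distance from the gene 5′ end along the gene (x axis, kb), with 1 point per library and a grey line between group means. The 4 regions at 89.6, 116.5, 118.7 and 141.0 kb have lower summits in MyoD-deleted libraries, and the bottom marks show 1 gained and 1 lost region.

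SNAI1, a repressor of CDH1, lies in a window with 23 regions, 14 of them in all 6 libraries. None passed the test by rank, and 4 had higher and 0 lower summits. These 4 lay together 45.1, 47.2, 51.1 and 65.7 kb from the 5′ end, downstream of the gene. The largest change was at 51.1 kb (chr20:50033705-50034302), where the summit held 42, 16 and 21 fragments in scramble and 45, 66 and 46 in MyoD-deleted libraries. The centred height rose by 1.16 ± 0.24 (2.23-fold, adjusted p = 0.00153) and the groups did not overlap. The region at 45.1 kb (chr20:50027463-50028436) rose by 0.83 ± 0.17 (1.77-fold, adjusted p = 0.00165), and that at 65.7 kb by 0.58 ± 0.16 (1.5-fold, adjusted p = 0.0116). Each of these 3 calls remained with any 1 library left out.

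The fourth, at 47.2 kb, rose by 0.61 ± 0.18 (adjusted p = 0.0184), a call lost without scramble replicate 2 (0.105) or MyoD-deleted replicate 1 (0.096) or 2 (0.0616). The local background was 1.36 to 1.72 times that in scramble at the 4 regions, and the part it plays was not tested. The gained region of this window lay 34.0 kb upstream in RNF114, a ubiquitin ligase gene. It had a fold enrichment of 5.51, 9.47 and 4.18.

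**Figure D5:**
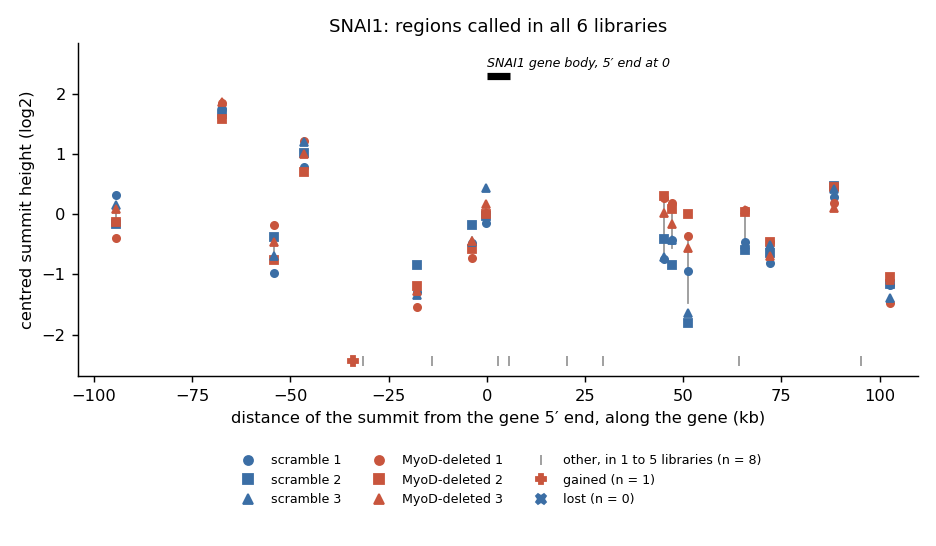
Centred summit height (y axis, log2) of the 14 SNAI1 regions called in all 6 libraries, by distance from the gene 5′ end (x axis, kb), with 1 point per library and a grey line between group means. The 4 regions from 45.1 to 65.7 kb are higher in MyoD-deleted libraries, and at the 5′ end, at 0, the groups overlap in height.

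SNAI2, the close relative of SNAI1 with a role in muscle precursors and neural crest, had 10 regions, 5 in all 6 libraries. Of these, 2 had lower summits, and none passed the test by rank. One lay 1.8 kb upstream of the gene, where the summit held 220, 155 and 139 fragments in scramble and 99, 114 and 144 in MyoD-deleted libraries. The groups overlapped there, and the height fell by 0.45 ± 0.13 (adjusted p = 0.021). The call was lost without scramble replicate 2 (0.117), without MyoD-deleted replicate 1 (0.0975) or 2 (0.0827), and without centring (0.192). The other lay 103.3 kb from the 5′ end, nearest to CLXN, with 145, 123 and 148 against 59, 78 and 91 fragments. Its height fell by 0.82 ± 0.14 to 0.567 of scramble (adjusted p = 0.000448), also with any 1 library left out.

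ZEB1 had 20 regions, 6 in all 6 libraries, and no gained, lost or rank-called region. Its 1 lower summit lay downstream of the gene (chr10:31618598-31621323). The summit held 651, 459 and 523 fragments in scramble and 360, 385 and 386 in MyoD-deleted libraries, and the height fell by 0.45 ± 0.09 (adjusted p = 0.000917). The call was lost without centring (0.109). PRRX1 had 12 regions and only 2 in all 6 libraries. One of these, 31.5 kb upstream, held 52, 52 and 50 against 23, 33 and 34 fragments, and fell by 0.73 ± 0.20 (adjusted p = 0.0125). That call was lost without scramble replicate 2 (0.0861) or MyoD-deleted replicate 1 (0.0705), and without centring (0.0563).

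Of the cadherins, CDH2 had 13 regions, 5 in all 6 libraries, and CDH11 had 16, with 6. In intron 2 of CDH2 (chr18:28114616-28115634) the summit held 99, 50 and 47 fragments in scramble and 87, 113 and 93 in MyoD-deleted libraries. Its centred height rose by 0.73 ± 0.18 (adjusted p = 0.00653), a call that remained with any 1 library left out. The local background was 1.77 times that in scramble. CDH2 also had 2 gained regions, one downstream with fold enrichments of 3.98, 3.66 and 7.0 and one in intron 2 with 4.28, 3.66 and 4.78.

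CDH11 had 2 higher summits, in intron 7 (+0.75 ± 0.26, adjusted p = 0.0424) and downstream (+0.74 ± 0.24, adjusted p = 0.0352). In both the groups overlapped. The first was lost without scramble replicate 1 (0.131) or 3 (0.132) or MyoD-deleted replicate 1 (0.0763), 2 (0.132) or 3 (0.0959), and the second without scramble replicate 2 (0.129) or 3 (0.123) or MyoD-deleted replicate 2 (0.0823) or 3 (0.16). Its gained region in intron 2 had a fold enrichment of 4.9, 7.02 and 9.56. Its lost region, 10.7 kb upstream, had 8.84, 7.44 and 6.16 in scramble, the highest ranked of the 3 lost member regions, and carries CAGCTG.

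VIM had 13 regions, 7 in all 6 libraries. Its higher summits lay 11.8 kb upstream (+0.43 ± 0.14, adjusted p = 0.036) and 10.8 kb from the 5′ end, downstream of the gene (+0.48 ± 0.16, adjusted p = 0.0371). The first was lost without scramble replicate 2 (0.133) or 3 (0.128) or MyoD-deleted replicate 1 (0.134) or 2 (0.0884), and the second without scramble replicate 2 (0.126) or 3 (0.104) or MyoD-deleted replicate 2 (0.124) or 3 (0.154). The lost region, 9.1 kb upstream in VIM-AS1, was shallow, with a fold enrichment of 3.03, 2.77 and 2.13 in the scramble libraries. FN1 had the fewest regions, 9, with 3 in all 6 libraries and no call by rank or centred height, while all 3 had higher summits without centring. Its gained region 24.8 kb upstream had the highest rank of the 9 gained, at 66.6, 79.0 and 66.6 among the regions called in each MyoD-deleted library. Its fold enrichments were 9.18, 11.9 and 9.56.

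Motif shares were counted within 100 bp of each top summit and are a description without a test. CAGCTG was found in 18.7% of the 166 member regions and in 25.1% of all regions, and CAGGTG in 11.4% and 15.9%. AP-1 sites were found in 27.7% of the member regions and 17.9% of all regions, and TEAD sites in 14.5% and 17.3%. CAGCTG lay in 2 of the 3 lost member regions, in 0 of the 9 gained and in 0 of the 4 that ranked lower. Over the whole genome it lay in 54.8% of lost, 13.2% of gained and 56.4% of lower-ranking regions. CAGGTG lay in 0 of the 3 lost, 0 of the 9 gained and 1 of the 4 lower-ranking member regions. Over the whole genome CAGGTG lay in 37.8% of lost, 8.08% of gained and 33.8% of lower-ranking regions, against 15.9% of all regions. Both E boxes were thus more frequent in lost and lower-ranking regions than in all regions. By gene, CAGCTG ranged from 0 of 9 FN1 regions to 6 of 16 CDH11 regions, and AP-1 from 4 of 23 SNAI1 regions to 5 of 12 PRRX1 and 10 of 27 CD44 regions.

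The same window rule was applied to genes of related function. A gene named here is the one whose 100 kb window held the region, and a neighbouring gene may lie closer. CLDN4, KRT19 and GRHL2, for example, had no open region within 2 kb of their 5′ end in any library. Among the 7 other EMT transcription factors (TWIST1, TWIST2, FOXC2, SNAI3, TCF4, GSC and SOX9), 0 of 38 regions called in all 6 libraries ranked higher and 2 lower, both at SNAI3, and 3 of 88 regions were gained and 2 lost. In the TGF-beta pathway, a main inducer of EMT, 5 of 116 ranked higher, at TGFBR1, TGFBR3, SMAD2 and SMAD3, and 3 lower, at TGFB2 and SMAD7. Gained regions there were 18 of 249 and lost ones 3. Of 12 epithelial genes that EMT factors repress, 3 of 90 regions ranked higher, at OVOL2, CLDN4 and KRT19, and 1 lower, at GRHL2, and 11 of 178 were gained and 0 lost. Of 12 other mesenchymal markers, 4 of 153 ranked higher, at TAGLN, MMP2, CDH6 and CDH13, and 0 lower, and 14 of 282 were gained and 1 lost. Ranking higher made up 0%, 4.31%, 3.33% and 2.61% of the tested regions of these 4 lists in this order (4.12% of all regions). Ranking lower made up 5.26%, 2.59%, 1.11% and 0% (4.67% of all). Gained regions were 3.41%, 7.23%, 6.18% and 4.96% (4.56% of all), and lost ones 2.27%, 1.2%, 0% and 0.35% (1.78% of all). By centred height, 1 of 38 regions was higher and 8 lower at the other EMT factors (2.63% and 21.1%), 24 and 11 of 116 in the TGF-beta pathway (20.7% and 9.48%), 11 and 2 of 90 at the epithelial genes (12.2% and 2.22%) and 21 and 5 of 153 at the other mesenchymal markers (13.7% and 3.27%), against 11.4% and 12.8% of all regions. The split depends on centring. Without it the counts were 3 and 7 of 38, 40 and 7 of 116, 28 and 1 of 90, and 54 and 2 of 153. Of all regions, 24.7% were higher and 8.03% lower without centring. The median change in rank was -0.132, 0.009, 0.041 and 0.042 SD units.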

How the data were processed

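ATAC-seq peak lists of 6 RH30 libraries were analysed, 3 sgRNA scramble and 3 sgRNA targeting MyoD, grouped by the labels. Paired-end reads had been mapped with Rsubread (hg38) by the authors, who called peaks in each library with MACS2 (version not given in the sources used here) and removed blacklisted regions. Per the labels, libraries were made with Nextera Tn5. Whether cut sites were shifted is not given in the sources used here. The deposited narrowPeak files give per peak a fold enrichment (a ratio of summit to local background), −log10 p-values and q-values, a display score and the summit offset, with no counts. Local background is the fragment density the caller used around the peak, and neighbouring open regions enter it.

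Fold enrichment and −log10 p together gave a whole number of summit fragments for 100% of peaks (tolerance 0.05%). Regions, joined from peaks of all 6 libraries, were annotated with GENCODE 44. limma 3.58.1 (R 4.3.3; eBayes with trend) was fitted to all 47885 regions called in all 6 libraries, with Benjamini-Hochberg adjustment, first to ranks of fold enrichment and second to centred log2 summit heights. Regions gained or lost were counted with no test. The study's own DESeq2 test used read counts not analysed here. The naming rule took, for each gene, the region nearest its 5′ end within 2 kb, the 2 largest changes in rank, in percentile points, past the threshold in each direction, and the highest ranked gained and lost region. Scripts were tested on simulated data. With 200 of 47885 regions shifted, the rank test found 0 at 0.5, 32 at 1 and 140 at 1.5 SD units. The height test found 0 at 0.3, 0 at 0.6 and 145 at 1.2 on the log2 scale. Fewer regions were shifted there than were called in the data. The fit to the data called a height change of -0.27 at the VIM 5′ region, below sizes that the simulation did not find. These recovered numbers therefore do not give the sensitivity of the tests here, and changes of the smaller sizes can still be missed. Alternatives were other peak thresholds, overlaps, windows and assignments, the −log10 p as the ranked measure, no centring, a replicate block and leaving out each library. Members and lists were chosen with earlier results of these data known. Mitochondrial peaks, 1 per library, were left out. With 3 libraries a group, the p-values set each change against the spread between these libraries, moderated over all regions tested. Intervals for counting error were not made because read totals are unknown. The value of 1 marker examined is not reported here.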

Additional observations from a re-analysis of the deposited data

How the results depend on the processing

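Counts of member regions moved with the settings as follows, and the cause was not tested beyond what each setting does. Shares of all regions are given above for the main settings and for heights without centring only. The other counts therefore cannot be set against all regions, and they do not set the members apart. Ranking −log10 p in place of fold enrichment gave 9 higher and 11 lower. Among lower-ranking regions, a −log10 q of at least 5 left 2, equal numbers of peaks per library left 2, and requiring peaks to cover 50% of the region left 1. Without centring, 25 summits were higher and 7 lower. In gene bodies and 5 kb around them, 4 summits were higher, 3 regions were gained and 0 lost. Equal numbers of peaks gave 3 gained and 8 lost, and 50% cover gave 5 gained. Leaving out each library in turn gave 0 to 3 higher and 2 to 4 lower by rank. By height it gave 7 to 13 higher and 7 to 12 lower. Gained regions were then 9 to 22 and lost ones 3 to 5, counts that leaving out a library cannot lower. The other settings stayed within 1.5 times the main counts. Over the named regions tested, 183 of the repeated values kept their side of the threshold, 22 lost it and 3 gained it, and none that was called turned its direction. The lower CD44 intron 1 and ZEB2 intron 2 regions are not in this tally under the −log10 q, equal-number and 50% cover settings, where they were no longer called in all 6 libraries and could not be fitted.

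Same-numbered libraries did not deviate together (correlations of -0.041, -0.098 and 0.041), so the numbers were not taken as pairs. A fit with the replicate block called 1 region higher and 3 lower by rank and 10 higher and 12 lower by height. The CD44 5′ region (adjusted p = 0.062) and the ZEB2 intron 3 region (0.0657) lost their rank calls there, and the CDH11 intron 7 region was the 1 higher (0.0472). The height calls lost were those downstream of CDH11 (0.054) and VIM (0.0616) and 35.2 kb upstream of CD44 (0.0587), and 1 lower ZEB1 region was called anew. Depth is known only through the smallest background, so an uncalled region may be open below the threshold.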
